A study of Mus musculus with 12 samples.

Results

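Genes of calcium entry, calcium release, potassium efflux and ATP sensing were followed in naïve CD8+ T cells: the pore subunits Orai1 and Orai2, the calcium sensors Stim1 and Stim2, the inositol trisphosphate (IP3) receptors Itpr1, Itpr2 and Itpr3, the potassium channels Kcna3 and Kcnn4, and the ATP receptor P2rx7. They were picked by symbol, as 10 of the 14323 gene symbols with counts; the list sets no threshold on a measured value, but it was drawn up with earlier results of these data known. The cells were TCRβ+CD8+CD62L+CD44- T cells of 3 wild type mice, sorted from spleen (adult C57BL/6N animals according to the methods, with no age given for these 3), plated at 100000 cells per well and cultured for 6 h on antibodies immobilized at 2.5 µg/ml. The 4 groups were unstimulated isotype (isotype control in place of both antibodies), unstimulated anti-LAIR-1 (the agonistic clone 2C7 without anti-CD3), anti-CD3 isotype (the CD3ε antibody 145-2C11 with isotype control) and, with both antibodies, anti-CD3 anti-LAIR-1. Each mouse gave 1 library to each group, so that every group held 3 libraries and the series 12. LAIR-1 is an inhibitory receptor for collagen, and anti-CD3 stands in for antigen by crosslinking the T cell receptor complex. Isolated cells of 1 type in wells coated with antibody lack antigen-presenting cells. Each library averages all cells of a well, so that fewer cells carrying an RNA and less RNA per cell cannot be told apart. Levels are shares of a library's counts, so that a rise or fall is relative to all other RNA and need not hold per cell.

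When the T cell receptor is engaged, phospholipase C makes IP3, which opens IP3 receptors and empties the calcium store of the endoplasmic reticulum. STIM proteins sense the emptied store and open ORAI pores in the plasma membrane, the route of sustained calcium entry that drives calcineurin and the NFAT transcription factors. Potassium leaving through Kv1.3 (Kcna3) and KCa3.1 (Kcnn4) keeps the membrane potential negative and so maintains the driving force for calcium, and P2X7 (P2rx7) is a cation channel opened by extracellular ATP. In lymphocytes ORAI1 is the main pore subunit and STIM1 the main sensor, while ORAI2 can join ORAI1 in mixed channels and STIM2 responds to smaller falls in stored calcium.

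In the GENCODE M21 annotation of GRCm38, the assembly also called mm10, all 10 genes are protein coding. Chromosome 5 holds 4 of them, Orai1 at chr5:123015074-123030456 (+ strand), Orai2 at chr5:136147459-136170713 (- strand), Stim2 at chr5:53998499-54121057 (+ strand) and P2rx7 at chr5:122643911-122691432 (+ strand). Stim1 (chr7:102267806-102437319, + strand) and Kcnn4 (chr7:24370263-24386690, + strand) are on chromosome 7. Itpr1 (chr6:108213096-108551109, + strand) and Itpr2 (chr6:146108299-146502223, - strand) are on chromosome 6, Itpr3 is at chr17:27057304-27122223 (+ strand) and Kcna3 at chr3:107036169-107038070 (+ strand). No exon of another gene overlapped the annotated 3′ end of any of them, where the counted reads arise.

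The ORAI and STIM pairs are shown with their upstream sequence because the members of each pair moved in opposite directions below. A RefSeq promoter entry (GRCm38.p6) was matched for 9 of the 10 genes, and the 190 bases from 250 to 61 before the annotated start are printed 5′ to 3′ on the strand of the gene, at chr5:123014824-123015013 (+ strand), chr5:136170717-136170906 (- strand), chr7:102267569-102267758 (+ strand) and chr5:53998273-53998462 (+ strand). Capitals mark matches, on either strand, to GGGCGG (a GC box), GGAAA (the core bound by NFAT) or TGANTCA (an AP-1 element), none of which overlap in these windows.
Orai1: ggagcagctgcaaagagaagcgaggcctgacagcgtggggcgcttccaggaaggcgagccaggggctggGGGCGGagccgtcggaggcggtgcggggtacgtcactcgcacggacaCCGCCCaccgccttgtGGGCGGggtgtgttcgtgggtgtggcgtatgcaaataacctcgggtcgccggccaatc
Orai2: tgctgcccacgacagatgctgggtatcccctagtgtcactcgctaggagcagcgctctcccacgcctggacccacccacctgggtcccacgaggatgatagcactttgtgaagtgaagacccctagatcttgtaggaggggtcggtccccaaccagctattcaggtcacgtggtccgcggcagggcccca
Stim1: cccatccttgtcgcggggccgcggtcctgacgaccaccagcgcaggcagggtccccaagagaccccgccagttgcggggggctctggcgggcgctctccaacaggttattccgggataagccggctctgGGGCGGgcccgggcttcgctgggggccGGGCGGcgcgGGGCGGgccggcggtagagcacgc
Stim2: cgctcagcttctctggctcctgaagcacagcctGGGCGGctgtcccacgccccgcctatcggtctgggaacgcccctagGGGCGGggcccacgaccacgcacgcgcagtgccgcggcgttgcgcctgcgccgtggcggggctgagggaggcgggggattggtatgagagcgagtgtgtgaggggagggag
The windows of Orai1 and Stim1 each held 3 GC boxes, that of Stim2 held 2 and that of Orai2 none, where 22.8% of 32851 RefSeq windows of this length held at least 1. GGAAA was in none of the 4 windows, against 46.9% of all windows, and TGANTCA was in none, against 5.22%. Over the 9 genes with a window, GC boxes were absent from Orai2 and Kcnn4 and present in the other 7, GGAAA was found once each for Kcna3 and P2rx7, and TGANTCA once for P2rx7. The P2rx7 matches were all in its window at chr5:122643677-122643866 (+ strand), while a further window of P2rx7 at chr5:122650133-122650322 (+ strand) held none of the motifs. The Orai1 window overlaps an exon of the gene Gm2479. The window of Orai2 held 9 CpG dinucleotides, while those of Orai1, Stim1 and Stim2 held 20, 23 and 20.

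Library totals ranged from 1781218 to 7725545 counts, and 3 counts were worth 0.404 to 1.61 CPM (counts scaled by TMM to 1000000 per library), so that genes of a few CPM rest on few counts. Depth moved with stimulation, from 1781218 to 3589194 counts in unstimulated and from 3478294 to 7725545 in anti-CD3 libraries. Without anti-CD3 it also moved with the antibody, from 1781218 to 2957929 counts under isotype and from 3547294 to 3589194 under anti-LAIR-1. With anti-CD3 the isotype and anti-LAIR-1 libraries overlapped in depth. The share of mitochondrial counts moved with stimulation too (17.6% to 20.9% against 11.5% to 13.2%). The part of depth and of this share in the results was not tested. Cd69, Il2ra and Nr4a1, which respond to T cell receptor signals, had log2 fold changes of 2.69, 5.00 and 3.69 for anti-CD3 with isotype control. This response was present in every mouse. In mice 1, 2 and 3 the log2 differences were 2.82, 2.85 and 2.47 (Cd69), 4.99, 4.85 and 5.05 (Il2ra), and 3.70, 3.72 and 3.69 (Nr4a1). Lair1 itself had only 0 to 7 counts per library. Of 10 naïve CD8+ T cell markers 9 were counted and Trbc2 was not, with a summed level of 5805 to 6411 CPM in unstimulated libraries and, with anti-CD3, of 1774 to 1905 CPM under isotype and 2249 to 2587 CPM under anti-LAIR-1. The B cell markers summed to 3.87 to 9.69 CPM unstimulated and 1.08 to 4.23 CPM with anti-CD3, without counts for Pax5. Of the other lists, summed levels stayed within 4.84 CPM (CD4+ T cell), 3.67 CPM (myeloid, no counts for Lyz2) and 3.44 CPM (erythroid and platelet, no counts for Hba-a1 or Hbb-bs). The NK cell list reached 48.6 CPM, of which Eomes alone gave up to 48.3 CPM, with no counts for Ncr1. A marker without counts was at 0 or not listed in the deposited counts, and these were not told apart.

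Anti-CD3 against unstimulated cells, with isotype control, addresses what T cell receptor engagement alone did to these genes within 6 h. Of the 10 genes, 8 had enough counts to be tested with edgeR's quasi-likelihood test, fitted without the mouse as a block. Orai1 and Stim2 rose, Orai2, Stim1, Itpr2, Itpr3 and Kcnn4 fell, and Itpr1 did not pass the threshold of an adjusted p-value of 0.05. Anti-CD3 changed most of the transcriptome, with 71.3% of the 8690 genes tested past the threshold (35.3% higher and 36.1% lower), so that 7 of 8 is close to the background. The median log2 fold change of the 8 genes was -1.36, and that of all genes tested was -0.03. With anti-LAIR-1 present in both arms, 7 of the 8 again passed, 2 higher and 5 lower, where 72.7% of 9000 genes did (36.4% higher and 36.3% lower), and the median was -1.44 against -0.04 over all genes. Itpr1 passed under anti-LAIR-1 and Kcnn4 under isotype, and the other 6 passed under both. The groups did not overlap for 2 genes higher and 5 lower under isotype, where 37.7% and 35.8% of all genes tested did so, and for 2 higher and 5 lower under anti-LAIR-1, where 37.6% and 37.2% did.

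**Figure D1:**
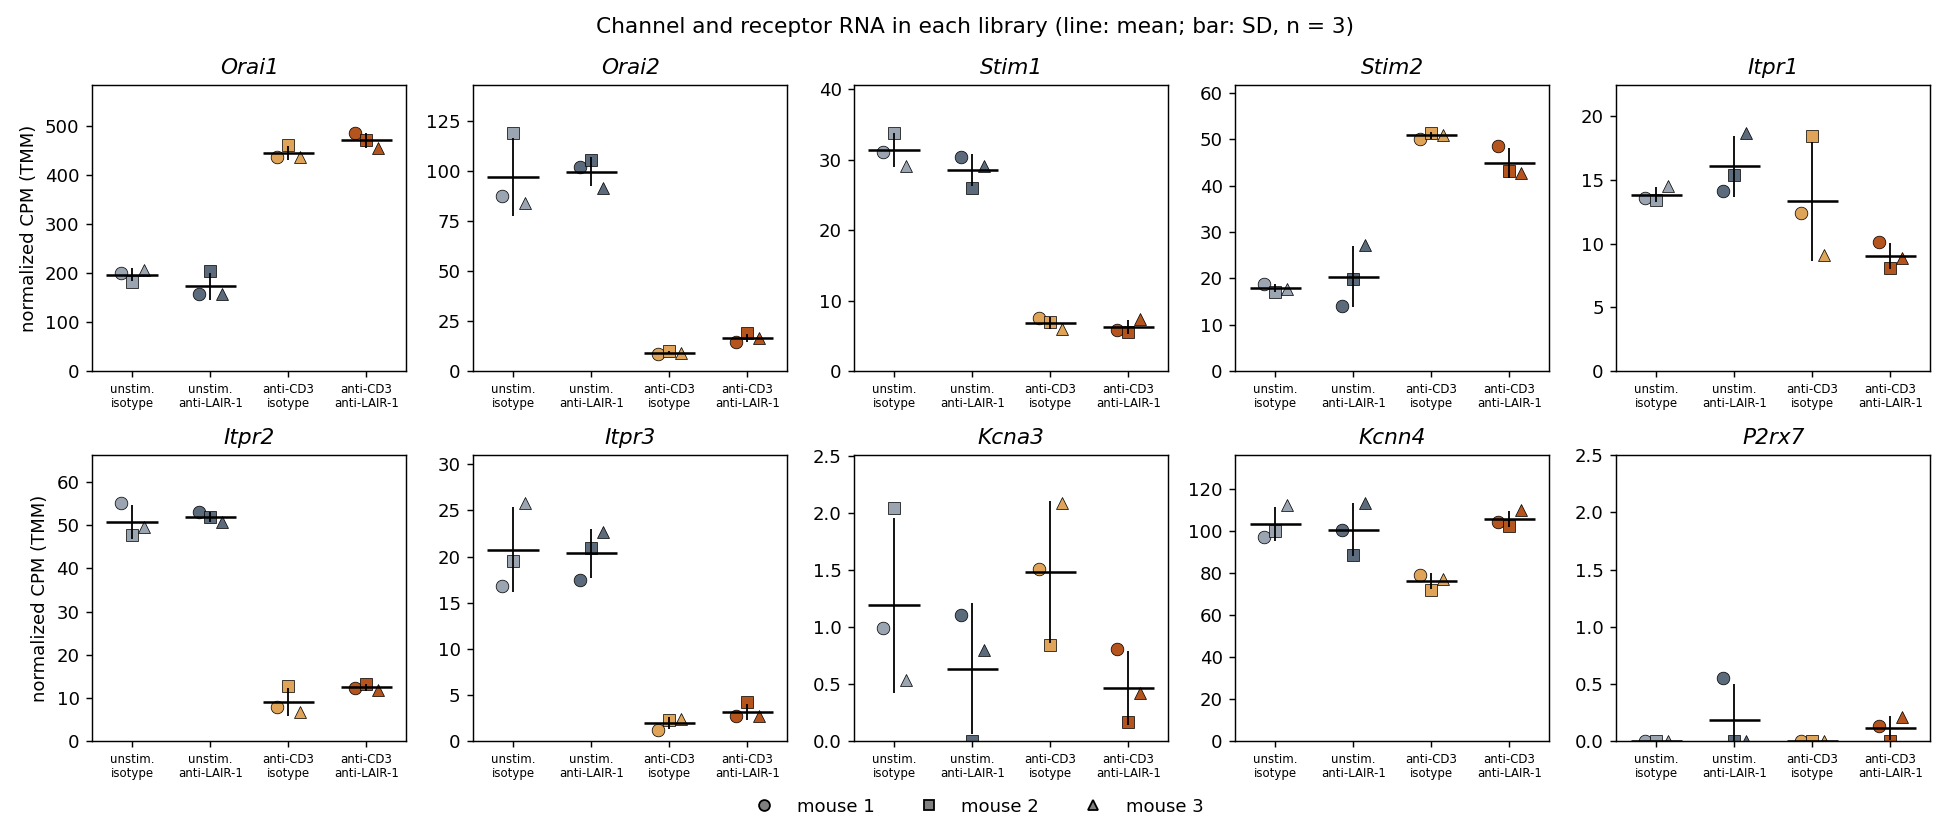
Normalized CPM (TMM) of each gene in the 12 libraries, with groups on the x axis, a symbol shape for each mouse, the mean as a line and the SD as a bar (n = 3). Orai1 and Stim2 sit higher in all 6 anti-CD3 libraries, Orai2, Stim1, Itpr2 and Itpr3 sit lower in all 6, Kcnn4 is lowest in the 3 anti-CD3 isotype libraries, and Kcna3 and P2rx7 stay under 2.5 CPM.

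Among the pore subunits, Orai1 was at 201, 181 and 206 CPM in the unstimulated isotype libraries of mice 1, 2 and 3, and at 158, 204 and 157 CPM in the unstimulated anti-LAIR-1 libraries. With anti-CD3 it was at 436, 461 and 436 CPM under isotype and at 486, 470 and 454 CPM under anti-LAIR-1. All 6 anti-CD3 libraries lay above all 6 unstimulated ones. The rise was 2.21-fold with isotype (log2 fold change 1.15, SE 0.09, edgeR adjusted p = 1.0e-10) and 2.70-fold with anti-LAIR-1 (1.44, SE 0.09, adjusted p = 6.6e-11). Within the stimulated and within the unstimulated groups, isotype and anti-LAIR-1 libraries overlapped.

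Orai2 went the other way and by a wider margin. It was at 87.5, 119 and 84.0 CPM in unstimulated isotype and at 102, 105 and 91.4 CPM in unstimulated anti-LAIR-1 libraries, which overlapped. With anti-CD3 it was at 8.45, 9.94 and 9.31 CPM under isotype and at 14.5, 18.9 and 16.5 CPM under anti-LAIR-1, so that the stimulated groups did not overlap each other or the unstimulated ones. The fall with isotype was 10.7-fold (log2 fold change -3.41, SE 0.17, edgeR adjusted p = 2.3e-14), the deepest among the 8 genes tested, and under anti-LAIR-1 it was 6.03-fold (-2.59, SE 0.13, adjusted p = 8.8e-13). The anti-CD3 isotype values rest on 28 to 58 counts per library.

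The pair therefore diverged within each library, a comparison that the scaling between libraries does not touch. Orai1 made up 67.0% ± 5.80 (SD, n = 3) of the counts of Orai1 and Orai2 together in unstimulated isotype and 63.3% ± 2.61 in unstimulated anti-LAIR-1 libraries. With anti-CD3 the share was 98.0% ± 0.116 under isotype and 96.6% ± 0.484 under anti-LAIR-1. The stimulated groups, at 97.9% to 98.1% and 96.1% to 97.1%, did not overlap, but no test of a share was made. An exact two-sided permutation of 3 against 3 libraries cannot give a p-value under 0.1, and no model was fitted to the shares. Orai3, the remaining family member, was looked at for completeness after its values were seen and did not pass in either anti-CD3 comparison, with group means of 15.6, 16.4, 16.6 and 16.8 CPM in the same order of groups and a log2 fold change of 0.09 (SE 0.24, adjusted p = 0.748) with isotype.

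Among the sensors, Stim1 was at 31.1, 33.8 and 29.1 CPM in unstimulated isotype and at 30.4, 26.0 and 29.1 CPM in unstimulated anti-LAIR-1 libraries. With anti-CD3 it was at 7.55, 6.98 and 5.94 CPM under isotype and at 5.79, 5.57 and 7.40 CPM under anti-LAIR-1. The stimulated groups overlapped each other, and all 6 of their libraries lay below all unstimulated ones. Stim1 fell 4.77-fold with isotype (log2 fold change -2.25, SE 0.22, edgeR adjusted p = 2.8e-09) and 4.62-fold with anti-LAIR-1 (-2.21, SE 0.19, adjusted p = 3.7e-09).

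Stim2 rose where Stim1 fell. It was at 18.8, 17.1 and 17.8 CPM in unstimulated isotype libraries, and at 14.1, 19.9 and 27.3 CPM in unstimulated anti-LAIR-1 libraries, the widest spread of its 4 groups. With anti-CD3 it was at 50.1, 51.4 and 50.9 CPM under isotype and at 48.6, 43.2 and 42.7 CPM under anti-LAIR-1, in each case above every unstimulated library. The rise was 2.76-fold with isotype (log2 fold change 1.46, SE 0.16, edgeR adjusted p = 2.1e-08) and 2.19-fold with anti-LAIR-1 (1.13, SE 0.17, adjusted p = 9.5e-06). Under anti-LAIR-1 the size differed between mice, at 1.75, 1.10 and 0.64 on the log2 scale in mice 1, 2 and 3.

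As a share of STIM counts, Stim2 made up 36.4% ± 2.45 (SD, n = 3) in unstimulated isotype and 41.1% ± 8.55 in unstimulated anti-LAIR-1 libraries. With anti-CD3 the share was 88.2% ± 1.32 under isotype and 87.7% ± 2.19 under anti-LAIR-1, groups that overlapped. It was higher with anti-CD3 in each of the 3 mice, with either antibody. Within 1 library these shares carry counting error, and the 95% Wilson interval was as wide as 28.5% to 48.4% for the shallowest library, with 33 Stim2 counts of 87.

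**Figure D2:**
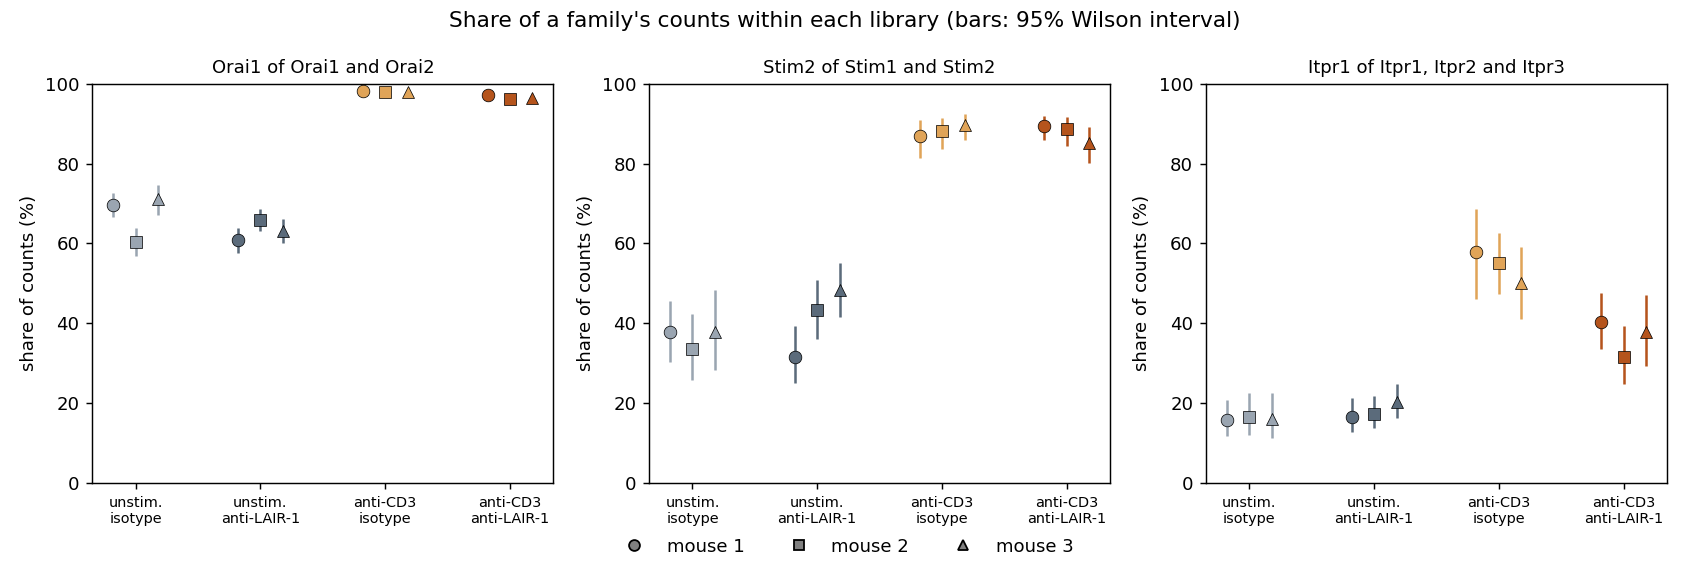
Share of a family's counts (%) taken by Orai1, Stim2 or Itpr1 in each of the 12 libraries, by group on the x axis, with a symbol shape per mouse and bars for the 95% Wilson interval of each library, which covers counting error only. Orai1 and Stim2 take 96.1% to 98.1% and 85.2% to 89.5% in anti-CD3 libraries, and Itpr1 takes 50.0% to 57.7% with isotype but 31.6% to 40.3% with anti-LAIR-1. In each panel the intervals of some libraries overlap between the anti-CD3 groups.

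The IP3 receptors, the release channels of the endoplasmic reticulum, did not move as 1 group. Itpr2 was at 55.2, 47.7 and 49.5 CPM in unstimulated isotype and at 53.1, 51.9 and 50.8 CPM in unstimulated anti-LAIR-1 libraries. With anti-CD3 it was at 7.85, 12.7 and 6.74 CPM under isotype and at 12.3, 13.3 and 11.8 CPM under anti-LAIR-1. The stimulated groups overlapped through mouse 2, and both lay far below the unstimulated ones. Itpr2 fell 5.75-fold with isotype (log2 fold change -2.52, SE 0.21, edgeR adjusted p = 2.2e-10) and 4.17-fold with anti-LAIR-1 (-2.06, SE 0.14, adjusted p = 9.2e-11).

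Itpr3 fell too, from 16.8, 19.6 and 25.8 CPM in unstimulated isotype libraries to 1.21, 2.33 and 2.41 CPM with anti-CD3. Under anti-LAIR-1 it went from 17.4, 20.9 and 22.7 CPM to 2.69, 4.22 and 2.75 CPM. The stimulated values rest on 4 to 15 counts per library with isotype and 13 to 25 with anti-LAIR-1, so that their sizes are less certain than those of Orai2 or Itpr2. The fall was 9.91-fold with isotype (log2 fold change -3.31, SE 0.32, edgeR adjusted p = 2.7e-09) and 6.32-fold with anti-LAIR-1 (-2.66, SE 0.25, adjusted p = 9.6e-09).

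Itpr1 was the member without a call in the isotype comparison. It was at 13.5, 13.4 and 14.5 CPM in unstimulated isotype libraries and at 12.4, 18.4 and 9.15 CPM with anti-CD3 and isotype, where mouse 2 was above and mouse 3 below every unstimulated isotype library. The log2 fold change was -0.10 (SE 0.26, 95% confidence interval -0.65 to 0.45, edgeR adjusted p = 0.752), and it was 0.17 without the anti-CD3 isotype library of mouse 3. Under anti-LAIR-1 it went from 14.1, 15.4 and 18.7 CPM unstimulated to 10.1, 8.10 and 8.88 CPM with anti-CD3, groups that did not overlap. That fall was 1.78-fold (log2 fold change -0.83, SE 0.21, adjusted p = 0.00137).

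Beside the falls of Itpr2 and Itpr3, Itpr1 made up a larger share of IP3 receptor counts in stimulated cells. Its share was 16.2% ± 0.421 (SD, n = 3) in unstimulated isotype, 18.1% ± 1.91 in unstimulated anti-LAIR-1, 54.3% ± 3.93 with anti-CD3 under isotype and 36.6% ± 4.51 under anti-LAIR-1. The stimulated groups did not overlap, at 50.0% to 57.7% and 31.6% to 40.3%, and their difference, like that of Orai1, was not tested. Shares of counts are read here only across groups, since counting at the 3′ end does not put different genes on 1 scale.

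Of the potassium channels, Kcnn4 encodes KCa3.1, which opens on calcium through calmodulin. It was at 97.1, 100 and 112 CPM in unstimulated isotype libraries and at 100, 88.5 and 114 CPM in unstimulated anti-LAIR-1 libraries. With anti-CD3 it was at 79.4, 71.9 and 77.1 CPM under isotype and at 104, 103 and 110 CPM under anti-LAIR-1. The anti-CD3 isotype libraries were thus the lowest 3 of all 12, and the other 9 overlapped. Kcnn4 fell 1.39-fold with isotype (log2 fold change -0.47, SE 0.11, edgeR adjusted p = 0.000815). Under anti-LAIR-1 the log2 fold change was 0.06 (SE 0.10, adjusted p = 0.592, 95% confidence interval -0.15 to 0.27), with a sign that turned to -0.15 with upper quartile scaling and -0.05 with library totals alone.

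Kcna3 encodes Kv1.3, a voltage-gated channel that sets the resting membrane potential of T cells, and its counts were too few for any test. It had 3, 5 and 1 counts in unstimulated isotype, 4, 0 and 3 in unstimulated anti-LAIR-1, 5, 4 and 13 with anti-CD3 under isotype and 6, 1 and 2 under anti-LAIR-1. The group means were 1.19 ± 0.769, 0.636 ± 0.572, 1.48 ± 0.621 and 0.466 ± 0.322 CPM (SD, n = 3), and all groups overlapped except that the anti-CD3 isotype libraries lay above the anti-CD3 anti-LAIR-1 ones, at 0.846 to 2.09 against 0.169 to 0.808 CPM. The gap rests on 1 to 13 counts per library, below the filter on low counts, and was not tested.

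P2rx7 was at or near 0 throughout. It had 2 counts in the unstimulated anti-LAIR-1 library of mouse 1, 1 count each in the anti-CD3 anti-LAIR-1 libraries of mice 1 and 3, and 0 in the other 9. For the groups in which all libraries were at 0, a count of 0 allows a level of up to 0.409 CPM in unstimulated isotype and 0.210 CPM in anti-CD3 isotype, from 3 counts over the group. Low counts at the 3′ end limit what this library type registered, not whether the channel was present.

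**Figure D3:**
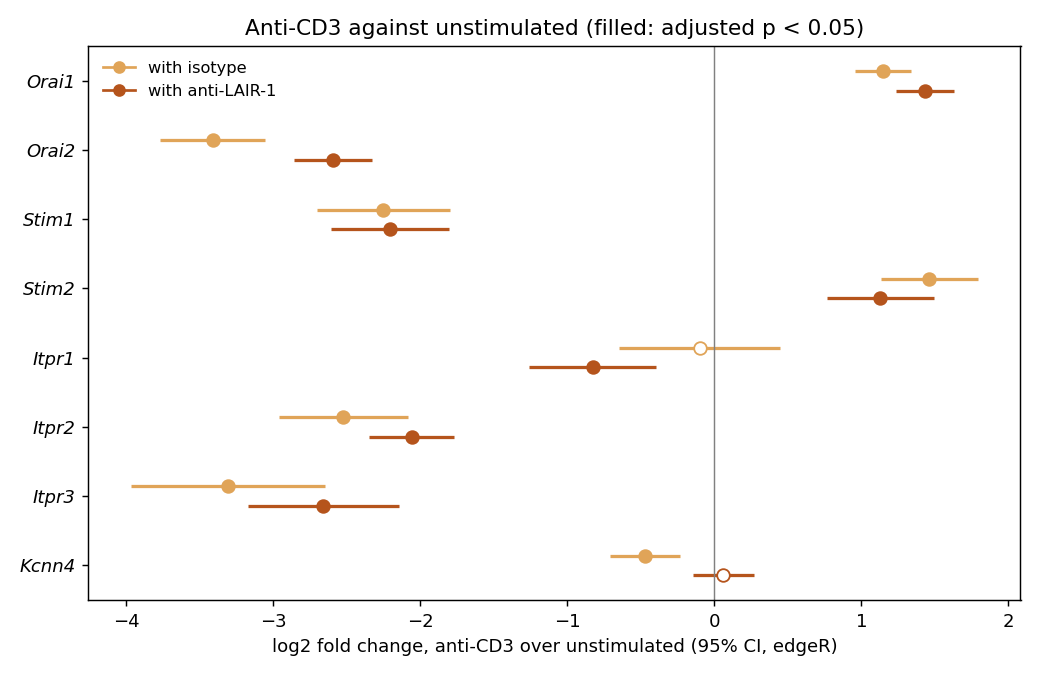
Log2 fold change of anti-CD3 over unstimulated cells (x axis) for the 8 genes tested, with isotype (light) and with anti-LAIR-1 (dark), bars for the 95% confidence interval from edgeR and filled points for an adjusted p-value under 0.05. Orai1 and Stim2 lie right of 0 and Orai2, Stim1, Itpr2 and Itpr3 left of 0 under both, while Itpr1 and Kcnn4 pass under 1 condition each.

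Anti-LAIR-1 against isotype in stimulated cells asks how LAIR-1 triggering alters the response. Orai2 and Kcnn4 rose, and the other 6 genes tested did not pass. In this comparison 5.76% of 8800 genes passed (3.9% higher and 1.86% lower), against 2 of 8 here. The median log2 fold change of the 8 was 0.26, and of all genes 0.0047. Orai2 was 1.78-fold higher (log2 fold change 0.83, SE 0.19, 95% confidence interval 0.43 to 1.23, edgeR adjusted p = 0.0139), in 3 of 3 mice and by 0.75, 0.89 and 0.79. Without the anti-CD3 anti-LAIR-1 library of mouse 2 its adjusted p-value was 0.0867 at a log2 fold change of 0.72. Kcnn4 was 1.38-fold higher (0.47, SE 0.09, 95% confidence interval 0.29 to 0.65, adjusted p = 0.00332), in 3 of 3 mice and by 0.39, 0.51 and 0.51. Beside these calls, the summed naïve CD8+ T cell markers were higher under anti-LAIR-1 (2249 to 2587 against 1774 to 1905 CPM), and Il2ra was lower (-0.49, SE 0.08, adjusted p = 0.00082), whose part in the result was not tested. For both genes the anti-LAIR-1 values lay on the side of the unstimulated cells, short of them for Orai2 and among them for Kcnn4.

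For the genes that did not pass, the intervals differed in width. Orai1 had a log2 fold change of 0.07 (95% confidence interval -0.07 to 0.21) and Stim2 one of -0.18 (-0.41 to 0.04), the narrowest intervals beside that of Kcnn4. Stim1 was at -0.13 (-0.65 to 0.40). Itpr1 was at -0.55 (-1.06 to -0.03, edgeR adjusted p = 0.230), lower in 3 of 3 mice, by 0.28 in mouse 1, 1.14 in mouse 2 and 0.04 in mouse 3, with overlapping groups. Itpr2 (0.46, -0.03 to 0.95) and Itpr3 (0.62, -0.21 to 1.45) had values above 0 in 3 of 3 mice and wide intervals. Single libraries moved these sizes: without the anti-CD3 isotype library of mouse 2, Itpr1 was at -0.22 and Itpr2 at 0.79, without that of mouse 3 Itpr2 was at 0.23, and without the anti-CD3 anti-LAIR-1 library of mouse 2 Itpr3 was at 0.38. The Stim2, Itpr3, Orai2 and Kcnn4 libraries did not overlap between the groups, 3 genes higher and 1 lower, where 12.9% and 11.1% of all genes tested did so in each direction.

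Without anti-CD3, none of the 8 genes passed for anti-LAIR-1 against isotype. Neither did any other of the 8770 genes tested pass in edgeR (0%), while 384 had an unadjusted p under 0.05, DESeq2 called 0, and 5 passed when genes of low count were kept. The 8 log2 fold changes lay between -0.18 (Orai1) and 0.22 (Itpr1), no member had an unadjusted p under 0.05, and the groups overlapped for each of them (4.8% of all genes tested were higher and 4.86% lower without overlap). The median was 0.012, against -0.0017 over all genes. The intervals were narrowest for Orai1 (-0.41 to 0.05) and widest for Stim2 (-0.30 to 0.67).

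**Figure D4:**
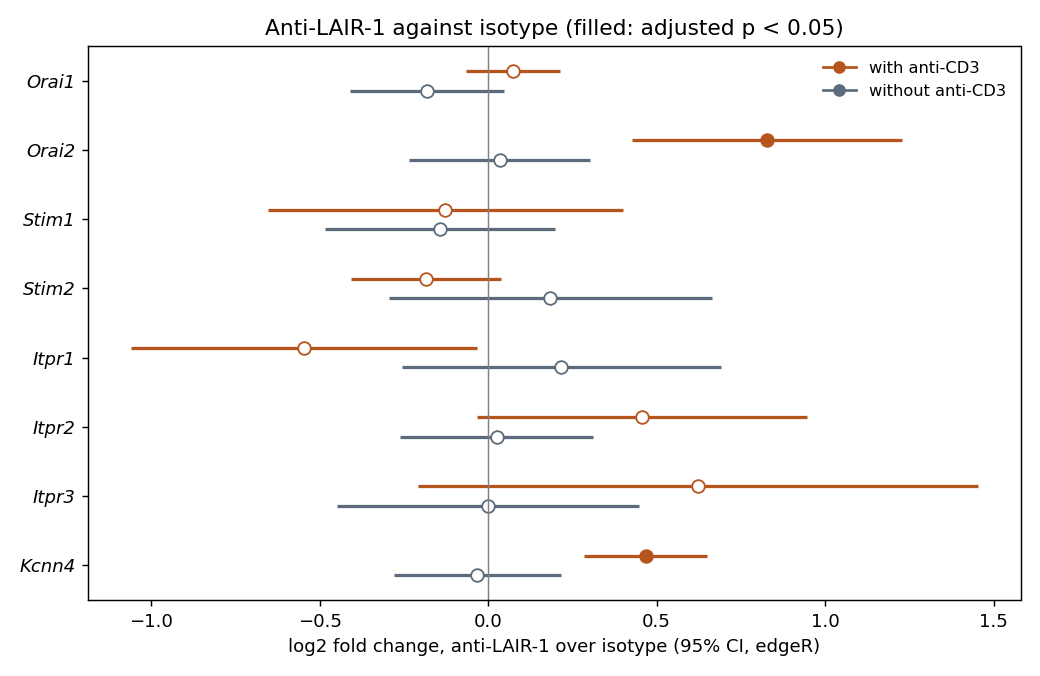
Log2 fold change of anti-LAIR-1 over isotype (x axis) for the 8 genes tested, in anti-CD3 stimulated cells (orange) and in unstimulated cells (grey), with bars for the 95% confidence interval from edgeR and filled points for an adjusted p-value under 0.05. Orai2 at 0.83 and Kcnn4 at 0.47 with anti-CD3 are the filled points, and the 8 unstimulated intervals include 0.

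Whether the effect of anti-LAIR-1 differed with and without anti-CD3 was tested as an interaction over all 12 libraries, again without the mouse as a block. None of the 8 genes passed, where 2.07% of 9223 genes did (1.82% higher and 0.249% lower), and 3 of the 8 had an unadjusted p under 0.05. Orai2 came closest (0.79 on the log2 scale, SE 0.22, edgeR adjusted p = 0.0620, above 0 in 3 of 3 mice), followed by Kcnn4 (0.50, SE 0.15, adjusted p = 0.0804, above 0 in 3 of 3 mice) and Itpr1 (-0.76, SE 0.34, adjusted p = 0.337, below 0 in 3 of 3 mice). Orai2 passed with the mouse as a block (0.78, adjusted p = 0.0371), without a filter on low counts (0.76, adjusted p = 0.0359) and in DESeq2 (0.80, adjusted p = 0.0420), and Kcnn4 passed in DESeq2 (0.50, adjusted p = 0.0484). Leaving out the unstimulated isotype library of mouse 3 or the anti-CD3 anti-LAIR-1 library of mouse 1 took Orai2 past the threshold (adjusted p = 0.0406 and 0.0459), and leaving out the unstimulated anti-LAIR-1 library of mouse 3 did so for Kcnn4 (0.0492). Of 19 alternatives, Orai2 passed in 5, with adjusted p-values of up to 0.190, and Kcnn4 in 2, with values of up to 0.213. For these genes the position relative to the threshold thus depended on the model and on single libraries. The anti-CD3 and anti-LAIR-1 comparisons share libraries, so that the smaller fall of Orai2 under anti-LAIR-1 and its higher level there are the same values seen from 2 sides.

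The levels of each gene can be put in order over the 4 groups. Orai1 was lowest in unstimulated anti-LAIR-1 (173 ± 27.3 CPM, SD, n = 3), then unstimulated isotype (196 ± 13.1) and, with anti-CD3, isotype (445 ± 14.4) and anti-LAIR-1 (470 ± 15.6), and neighbours differed beyond their spread only between the unstimulated and stimulated groups. For Orai2 the order was anti-CD3 isotype (9.24 ± 0.749), anti-CD3 anti-LAIR-1 (16.6 ± 2.18), unstimulated isotype (96.8 ± 19.3) and unstimulated anti-LAIR-1 (99.5 ± 7.30), with only the last pair overlapping. Kcnn4 ran from anti-CD3 isotype (76.1 ± 3.81) through unstimulated anti-LAIR-1 (101 ± 12.5) and unstimulated isotype (103 ± 8.12) to anti-CD3 anti-LAIR-1 (106 ± 3.79), and the upper 3 groups overlapped. Stim1, Stim2, Itpr2 and Itpr3 each fell into an unstimulated and a stimulated pair of groups, with no overlap between the pairs.

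Other genes of the pathways were counted from 3 lists chosen with earlier results of these data known. Of 60 calcium handling genes with counts, 37 were tested for anti-CD3 with isotype, of which 12 rose and 17 fell, where 35.3% of all genes tested rose and 36.1% fell, so that the list is close to the background. The median log2 fold change was -0.25, against -0.03 over all genes. The largest changes were falls of Ccdc109b, a subunit that dampens the mitochondrial calcium uniporter (-3.54, SE 0.40, edgeR adjusted p = 3.8e-08), and of the cation channel Trpv2 (-3.20, SE 0.33, adjusted p = 7.4e-09), and a rise of Hspa5, the endoplasmic reticulum chaperone BiP (2.83, SE 0.10, adjusted p = 9.2e-17). Hspa5 went from 88.2 ± 11.0 to 647 ± 18.1 CPM (SD, n = 3), while Ccdc109b stood at only 4 to 7 counts and Trpv2 at 7 to 11 counts per library after anti-CD3. With anti-CD3, anti-LAIR-1 raised 3 and lowered 1 of 38 tested, where 3.9% of all genes were higher and 1.86% lower. Trpv2 (1.54, SE 0.38, adjusted p = 0.0215), Sri, encoding the calcium-binding sorcin (0.58, SE 0.12, adjusted p = 0.00703), and Tmem66, encoding SARAF, a brake on store-operated entry (0.37, SE 0.10, adjusted p = 0.0313), were higher, and Camk2d, a calcium and calmodulin-dependent kinase (-0.45, SE 0.09, adjusted p = 0.00483), was lower. Trpv2 and Tmem66 each lost the call when 1 of several libraries was left out, with adjusted p-values of up to 0.147 and 0.144 over the alternatives. Sri also passed as an interaction (0.79, SE 0.17, adjusted p = 0.00933), alone of 40 tested.

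Of 29 other potassium and anion channel genes with counts, 20 were tested for anti-CD3 with isotype, of which 6 rose and 13 fell, where 35.3% and 36.1% of all genes did. The median log2 fold change was -1.20, against -0.03 over all genes. Ttyh3, a membrane protein of the tweety family, fell from 163 ± 14.9 to 9.45 ± 1.22 CPM (SD, n = 3) (log2 fold change -4.12, SE 0.15, edgeR adjusted p = 5.2e-17), and Ano10, of the anoctamin family, fell by 3.22 (SE 0.41, adjusted p = 2.1e-07). The voltage-gated potassium channel gene Kcnq5 rose from 3.84 ± 2.92 to 39.3 ± 1.66 CPM (3.41, SE 0.29, adjusted p = 3.6e-10). Kcnq5 had only 3 to 13 counts per unstimulated isotype library, and Ano10 only 2 to 11 per anti-CD3 isotype library. With anti-CD3, anti-LAIR-1 raised 3 of 19 tested (3.9% of all genes), namely Ttyh3 (0.69, SE 0.18, adjusted p = 0.0347), Lrrc8a, the obligatory subunit of the volume-regulated anion channel (0.60, SE 0.15, adjusted p = 0.0294), and Clic1 (0.52, SE 0.14, adjusted p = 0.0291). These calls were fragile, with 0 to 2 of the list passing when any 1 of the 6 libraries was left out. Ttyh3 also passed as an interaction (0.73, SE 0.19, adjusted p = 0.0392) among 21 tested, and lost this call in 9 of the 12 fits that left out 1 library, with adjusted p-values of 0.0567 to 0.119.

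Of 22 other purinergic genes with counts, 10 were tested for anti-CD3 with isotype, of which 3 rose and 5 fell, where 35.3% and 36.1% of all genes did, so that the count is near the background. The median log2 fold change was -0.84, against -0.03 over all genes. The nucleoside transporter gene Slc29a2 rose from 3.18 ± 2.59 to 55.5 ± 8.88 CPM (SD, n = 3) (log2 fold change 3.98, SE 0.29, edgeR adjusted p = 1.7e-11), and Adora2a, encoding an adenosine receptor, rose from 1.95 ± 1.59 to 16.0 ± 2.08 CPM (2.93, SE 0.38, adjusted p = 2.9e-07). Their unstimulated isotype values rest on only 1 to 14 (Slc29a2) and 1 to 9 (Adora2a) counts per library. Dpp4, encoding CD26, which binds adenosine deaminase at the cell surface, fell from 138 ± 4.27 to 10.7 ± 2.72 CPM (-3.68, SE 0.15, adjusted p = 8.1e-16). With anti-CD3, anti-LAIR-1 raised 3 of 11 tested (3.9% of all genes), which were Dpp4 (1.19, SE 0.20, adjusted p = 0.00133), Nt5e, encoding CD73, which makes adenosine (0.67, SE 0.12, adjusted p = 0.00246), and the nucleoside transporter gene Slc29a1 (0.35, SE 0.07, adjusted p = 0.00736). Dpp4 also passed as an interaction (1.16, SE 0.21, adjusted p = 0.00209), alone of 11 tested. Without anti-CD3, none of the 39, 19 and 9 genes tested of the 3 lists passed.

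With anti-LAIR-1 in both arms, the counts for anti-CD3 were 12 higher and 18 lower of 37 calcium handling genes, 6 higher and 13 lower of 20 potassium and anion channel genes, and 4 higher and 5 lower of 11 purinergic genes, where 36.4% of all genes tested were higher and 36.3% lower.

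Finally, genes with the most similar pattern were sought for each of the 8, as the smallest root mean square (RMS) difference of centred log2 CPM over the 12 libraries among 7982 genes with a mean of at least 20 counts. For Orai1 they were Trmt11 (RMS 0.106), Lsm6 (0.107) and Dnajc19 (0.108), set against an RMS of 0.669 of Orai1 about its own mean. Orai2 was followed most closely by Cd97 (0.133), Add1 (0.135) and Sun2 (0.140), against 1.501 for Orai2 itself. The closest genes were Ypel5 (0.171) for Stim1, Abhd11 (0.146) for Stim2, Rnf168 (0.188) for Itpr1, Cdc42se2 (0.178) for Itpr2, Vipr1 (0.201) for Itpr3 and Shoc2 (0.110) for Kcnn4. The match was weakest relative to the gene's own variation for Kcnn4 (0.110 against 0.212) and Itpr1 (0.188 against 0.370), whose levels moved least between groups. No member was among the 3 most similar genes of another.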

How the data were processed

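The authors sequenced RNA of the 12 cultures by CEL-seq, a method that counts 3′ ends, on a NextSeq 500, aligned read 2 with BWA MEM to the mm10 transcriptome, discarded reads placed equally well at several locations and counted the rest with MapAndGo. The deposited values are raw counts per gene symbol, from 1781218 to 7725545 per library. Whether molecular identifiers were collapsed is not given in the sources used here. The Wilson intervals of shares and the floors cover counting error only, and may be too narrow if identifiers were not collapsed. The intervals from the edgeR fits also include variation between libraries.

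Counts were compared with edgeR 4.0.16 in R 4.3.3 (TMM, filterByExpr, quasi-likelihood F-test, Benjamini-Hochberg adjustment over all genes tested, threshold 0.05), fitted on the groups compared, and for the interaction on all 12 libraries. DESeq2, the tool named in the methods, served as an alternative in version 1.42.0. Other alternatives were DESeq2's size factors, upper quartile and total-count scaling, no filter, at least 10 counts in every library, all 12 libraries in 1 fit, the mouse as a block, and each library left out. CPM are TMM-scaled. Confidence intervals are at 95%, and those of shares are Wilson intervals. For the edgeR fits, each SE was derived from the log2 fold change and its F statistic, and the interval from that SE and the t distribution. Genes outside the 10 were named if they had 1 of the 3 largest changes of their list with anti-CD3 and isotype, or passed in a comparison of anti-LAIR-1 or the interaction. Members and lists were chosen with earlier results of these data known. The fits were tested on simulated counts with the same dispersion for every gene and no effect of the mouse, a simpler setting than these data. Positions are from GENCODE M21 (GRCm38) and promoter windows from RefSeq (GRCm38.p6); the Itpr1 window was not analysed here, and no protein sequence was used here.

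Libraries with the same number come from the same mouse, as the labels number the mice and the methods describe cells sorted per mouse. Over all genes, the deviations of libraries from their group means had a mean correlation of 0.0510 in 18 pairs of the same mouse and -0.0255 in 36 pairs of different mice. No 2 libraries of a group agreed within sampling noise (variance 3.82 to 5.62 times that of sampling).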

Additional observations from a re-analysis of the deposited data

Results flagged for a closer look

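As reported, no interaction passed for the 8 of the 10 genes that were tested, although Orai2 did with the mouse as a block (adjusted p = 0.0371), without a filter (0.0359) and in DESeq2 (0.0420), and Kcnn4 in DESeq2 (0.0484), beside the single libraries named in the text. Orai2 passed in 5 of 19 alternatives and Kcnn4 in 2 of 19, with adjusted p-values of up to 0.190 and 0.213. In the lists around them, stimulated and unstimulated cells differed in their response to anti-LAIR-1 by the edgeR interaction test for Dpp4 (1.16 on the log2 scale, adjusted p = 0.00209), Sri (0.79, adjusted p = 0.00933) and Ttyh3 (0.73, adjusted p = 0.0392). The values of Dpp4 and Sri passed in all 19 alternatives and that of Ttyh3 in 10 of 19, with adjusted p-values of up to 0.119.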

How the results depend on the processing

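Of the values of the 8 genes tested under the alternatives, 568 kept their direction and their side of the threshold, 7 passed newly, 1 no longer passed and 21 changed sign, each of the 21 for a difference that did not pass. With anti-CD3, 7 members passed under either antibody in every alternative that tested all 8, and 6 under isotype with at least 10 counts in every library, which left Itpr3 untested. Scaling by the upper quartile moved the median of all genes by -0.18 (isotype) and -0.21 (anti-LAIR-1) in the anti-CD3 comparisons, and total counts by -0.11 in the latter. Under these scalings the Kcnn4 change with anti-LAIR-1 was -0.15 and -0.050. Itpr3 without anti-CD3 was 0.0074 with the upper quartile, 0.0040 without a filter and 0.0059 with at least 10 counts in every library, against -0.00098 as reported. Stim1 as an interaction was -0.0081 without a filter. Without a filter, 5 genes passed for anti-LAIR-1 in unstimulated cells. As an interaction, 2 members passed in DESeq2, 1 without a filter and 1 with the mouse as a block (Orai2). The block changed the call of no other member.

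Leaving out 1 library at a time, anti-LAIR-1 with anti-CD3 called 293 to 427 genes and 1 to 2 members, with the fewest genes without mouse 2 (293 without its isotype library, 315 without its anti-LAIR-1 library) and 334 without the anti-LAIR-1 library of mouse 3. Without anti-CD3 it called 0 to 1 genes. The interaction called 103 to 186 genes and 0 to 1 members. Fitted changes that crossed 0 ranged from -0.40 to 0.17 for Itpr1 (anti-CD3 with isotype), from -0.027 to 0.16 for Kcnn4 (anti-CD3 with anti-LAIR-1), and from -0.10 to 0.087 for Stim1 (interaction). For anti-LAIR-1 without anti-CD3 they ranged from -0.13 to 0.056 (Kcnn4), -0.022 to 0.098 (Itpr2), -0.048 to 0.21 (Orai2), -0.14 to 0.17 (Itpr3) and -0.082 to 0.39 (Stim2). Where 1 library was left out, the remaining 2 of its group carry the estimate. The cause of these shifts was not tested. Depth limits Kcna3 and P2rx7, which had 0 to 13 and 0 to 2 counts per library.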
